A study of Danio rerio with 20 samples.

Results

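Myelin structural protein genes encode the proteins that give the myelin sheath its layered form. The set described here held 8 genes, mbpa, mbpb, plp1a, plp1b, mpz, mag, cldnk and cldn19, taken by gene symbol from 31743 genes counted in every library. They were measured in oligodendrocyte precursor cells (OPCs), glial cells that divide and give rise to myelin-forming oligodendrocytes, which had been sorted from zebrafish and profiled by RNA sequencing of 3′ transcript ends. The 20 libraries fell into 4 groups of 5, each treated for 16 h. One group received 4-aminopyridine (4AP, which blocks potassium channels and so raises neuronal firing) and was set beside the 4AP control, and another underwent capsaicin-TRPV1 demyelination and was set beside the demyelination control. The series title opposes adaptive to regenerative myelination, and the comparisons below take each treatment against its control and then one response against the other. The age of the fish, the cells that carried TRPV1, the reporter used for sorting, and what each control received are not given in the sources used here. It is also not stated whether replicates came from separate fish, so p-values measure the spread between these libraries, which may be technical.

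Myelin is made of many turns of glial membrane pressed together around an axon. Precursor cells hold little transcript of its structural proteins, and these transcripts accumulate when the cells differentiate into oligodendrocytes. In sorted bulk samples, fewer maturing cells and less transcript per cell cannot be told apart.

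The members belong to several parts of the sheath. Myelin basic protein, encoded by mbpa and mbpb, holds the cytoplasmic faces of the membrane together. Proteolipid protein, encoded by plp1a and plp1b, is a membrane-spanning protein of compact central myelin. Myelin protein zero, encoded by mpz, is an adhesion protein of peripheral myelin in mammals that fish also have in central myelin. Myelin-associated glycoprotein, encoded by mag, sits on the glial membrane facing the axon. Claudin k, encoded by cldnk, is a tight junction protein of myelinating glia in zebrafish, and claudin 19, encoded by cldn19, forms tight junctions in mouse Schwann cells, the myelinating glia of peripheral nerves.

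Coordinates and Ensembl identifiers are those of the deposited tables, on build GRCz11. The gene mbpa (ENSDARG00000036186) lies on chromosome 19 from 21814047 to 21832630, and mbpb (ENSDARG00000089413) on chromosome 16 from 6803342 to 6849781, both on the minus strand. The gene plp1a (ENSDARG00000103732) lies on the plus strand of chromosome 14 from 14577246 to 14596699. Its paralog plp1b (ENSDARG00000011929) lies on the minus strand of chromosome 5 from 23268121 to 23280098. The remaining 4 are on minus strands: mpz (ENSDARG00000038609) on chromosome 2 from 44259482 to 44283554, mag (ENSDARG00000104023) on chromosome 15 from 33891808 to 33933820, cldnk (ENSDARG00000042357) on chromosome 3 from 50123507 to 50127668, and cldn19 (ENSDARG00000044569) on chromosome 11 from 39013763 to 39044595. A gene listed on the opposite strand, CU856623.1, overlaps mbpa and had 108 reads over all libraries, against 1509 for mbpa. The strand of counting is not given in the sources used here, so reads of overlapping genes may have been exchanged.

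Depth set how finely each gene could be read. Total gene reads, the exon and intron reads of all genes together, were 356494 to 1744483 in 4AP, 163158 to 897620 in the 4AP controls, 38314 to 3528970 in demyelination and 1180 to 282966 in the demyelination controls. Demyelination control 1 is the library of 1180 reads. It held 0 reads of any member. At this depth 3 reads would equal 2542 CPM (a gene's reads scaled to the total gene reads of its library). This library is kept in the fits, and means of the demyelination controls are also given without it (n = 4). Demyelination 1 to 4 had 38314 to 83149 reads, so that 3 reads there equal 36.1 to 78.3 CPM, and several of their values rest on fewer than 10 reads. The deposited files also carry a prefix whose meaning is not stated: P1 for 4AP controls 1 to 4, P2 for 4AP control 5 and all 4AP libraries, and P3 for the demyelination experiment. Most of the 4AP comparison therefore coincides with the prefix, and intervals below cover counting error only.

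Markers of other cells were present beside those of OPCs. The 8 OPC markers summed to 787 to 979 CPM in 4AP, 362 to 632 CPM in the 4AP controls, 245 to 589 CPM in demyelination and 463 to 694 CPM in demyelination controls 2 to 5, with reads for every marker in every group. The 5 keratinocyte markers summed to 5355 to 10745 CPM, 4679 to 12278 CPM, 3043 to 7738 CPM and 3025 to 3856 CPM in those groups, and the 6 exocrine pancreas markers to 3660 to 8286 CPM, 6914 to 15027 CPM, 2899 to 9764 CPM and 3651 to 4129 CPM. The 6 Schwann cell markers, which bear on mpz and cldn19, summed to 66.2 to 96.9 CPM, 24.7 to 85.8 CPM, 48.1 to 136 CPM and 54.6 to 106 CPM, with none at 0 in any group. The part these cells have in the values below was not tested.

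The 8 members together held 8523 reads in 4AP, 1838 in the 4AP controls, 1391 in demyelination and 1618 in the demyelination controls. Their summed level was 1756, 2035, 986, 1832 and 1718 CPM in 4AP replicates 1 to 5, against 525, 903, 896, 1324 and 1108 CPM in the 4AP controls. The 95% exact binomial interval of the lowest 4AP library ran from 910.4 to 1067 CPM and that of the highest 4AP library from 1953 to 2121 CPM. The 4AP libraries averaged 1666 ± 399 CPM and their controls 951 ± 296 CPM (SD, n = 5 each), and the groups overlapped because 4AP 3 lay below controls 4 and 5. In demyelination the sum was 539, 1383, 456, 1612 and 324 CPM, against 0, 2188, 3155, 1292 and 2095 CPM in its controls. Demyelination averaged 863 ± 590 CPM (n = 5) and its controls 1746 ± 1179 CPM (n = 5), or 2182 ± 763 CPM (n = 4) without the library of 1180 reads. Demyelination 5, the deepest library of the series, had the lowest sum above 0, with an interval of 306 to 344 CPM.

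**Figure D1:**
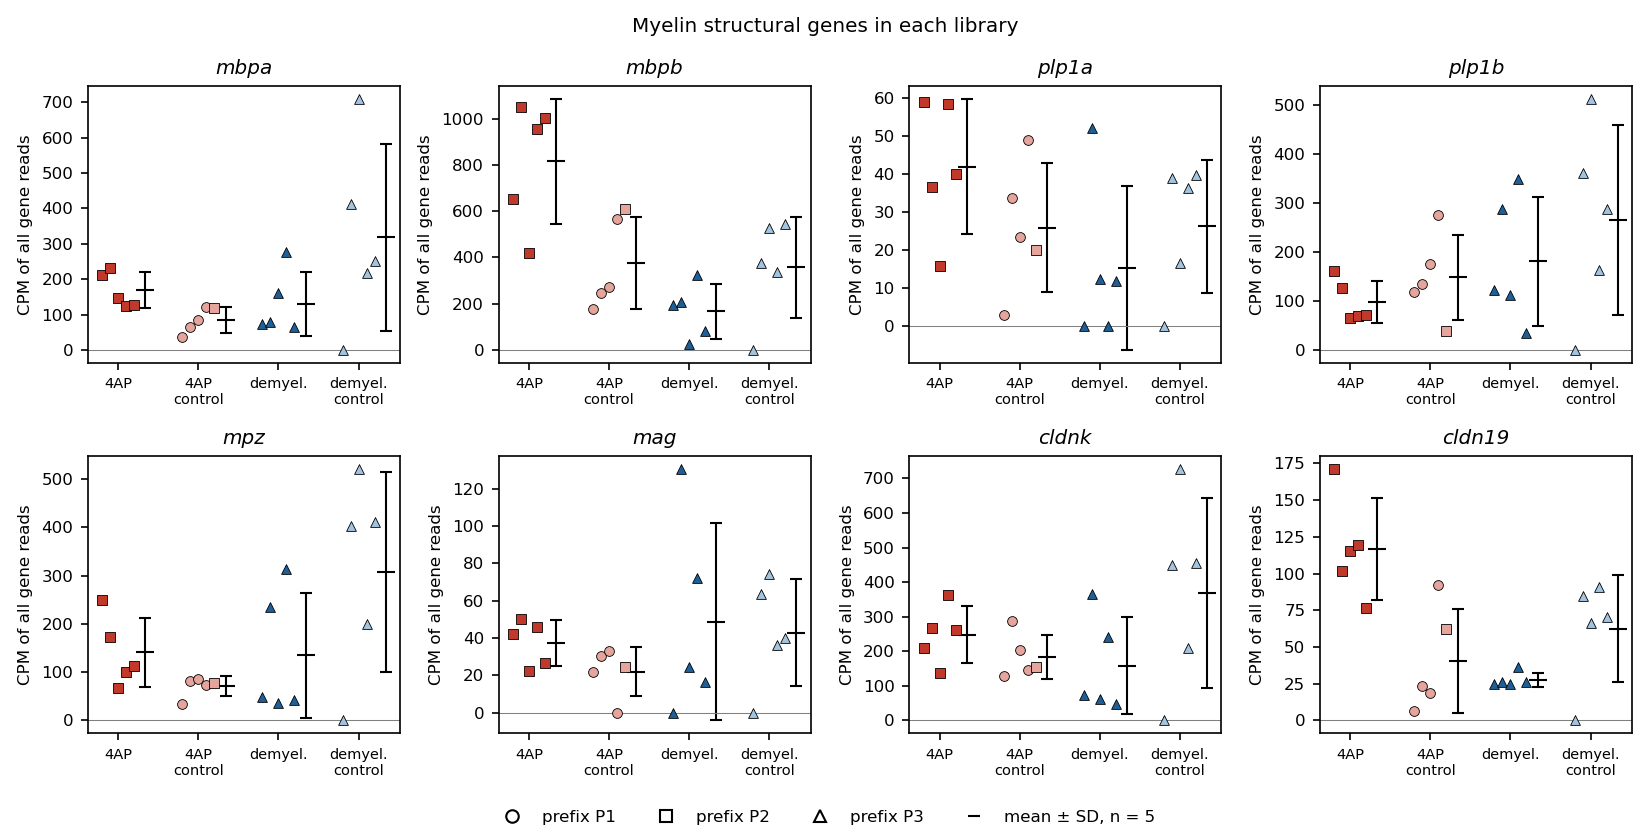
Level of each of the 8 members in every library, in CPM of total gene reads, with 1 panel per gene, 1 point per library, point shapes for the file prefix, and bars for the mean ± SD of 5 libraries. Most 4AP points of mbpa and mbpb sit above their control points, and 1 demyelination control, the library of 1180 reads, sits at 0 in every panel.

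**Figure D2:**
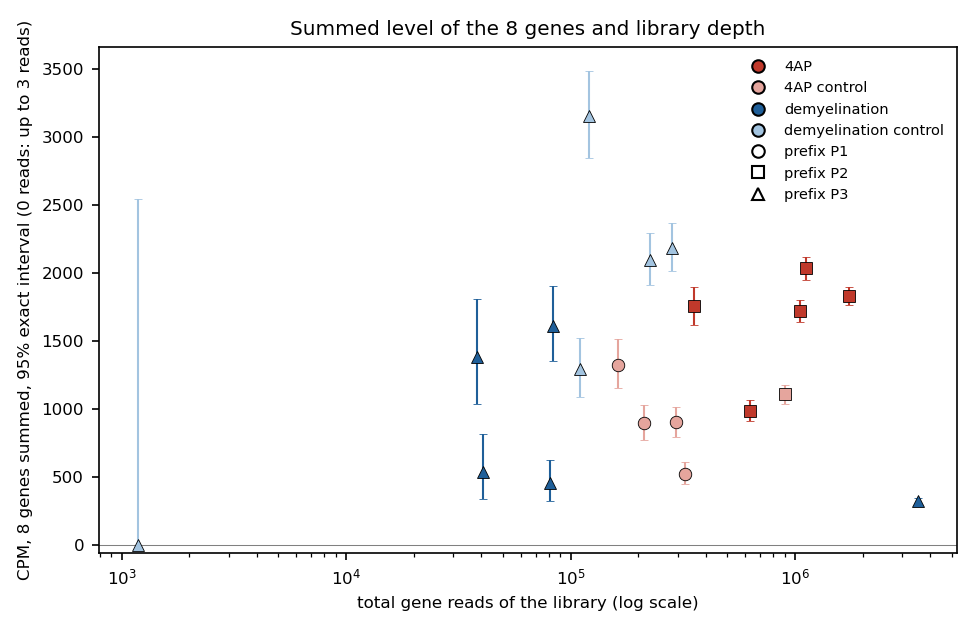
Summed level of the 8 members against total gene reads per library (log axis), with 95% exact binomial intervals as bars where member reads were found. The library of 1180 reads held 0 member reads, and its bar runs to 2542 CPM, the level of 3 reads. The deepest library sits at 324 CPM with a narrow interval.

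Of the myelin basic protein genes, mbpb averaged highest in 4AP and mbpa in the demyelination controls. In 4AP the level of mbpa was 213, 233, 145, 124 and 127 CPM, against 37.1, 64.3, 84.9, 123 and 118 CPM in the 4AP controls. These groups did not overlap on library totals, the 4AP libraries being higher, a pattern shared by 11.8% of the genes tested. With TMM-normalised levels (TMM is a scaling that sets libraries to a common level over most genes) the mbpa groups did overlap. They also overlapped when exon reads were scaled to total exon reads, with 4AP 4 at 133 CPM and 4AP control 4 at 143 CPM. The level of mbpb was 651, 1049, 417, 954 and 1004 CPM in 4AP, against 176, 247, 274, 564 and 611 CPM in the controls. Here 4AP 3 lay below controls 4 and 5.

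In demyelination mbpa was at 73.5, 78.3, 160.3, 277 and 65.5 CPM, against 0, 413, 710.3, 218 and 251 CPM in the demyelination controls. The values of replicates 1 and 2 of demyelination rest on 3 reads each. The level of mbpb was 196, 209, 24.7, 325 and 80.5 CPM in demyelination, against 0, 375, 529, 337 and 543 CPM in the controls. On library totals all 5 demyelination libraries lay below the 4 deeper controls for mbpb. This was shared by 5.1% of the genes tested without control 1, and leaving it out here was added after seeing the data. With TMM-normalised levels from the fit that kept control 1, mbpb did overlap, with demyelination 4 at 599 CPM and control 4 at 485 CPM. For mbpa, 1 of the 5 demyelination libraries lay above control 4.

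For plp1b the level was 159.9, 125, 64.8, 68.2 and 71.5 CPM in 4AP, against 117, 135, 174, 276 and 39.0 CPM in the 4AP controls. Control 5, the 1 control that carries prefix P2, was the lowest of all 10 libraries, and the other 4 controls lay above 3 of the 5 4AP libraries. In demyelination plp1b was at 123, 287, 111, 349 and 33.7 CPM, against 0, 360.5, 512, 164 and 287 CPM in the controls. The paralog plp1a was low everywhere, with 329 reads in all and reads in 17 of 20 libraries. It averaged 42.0 ± 17.9 CPM in 4AP and 25.9 ± 17.01 CPM in the 4AP controls (SD, n = 5 each). In demyelination it averaged 15.3 ± 21.5 CPM, against 26.3 ± 17.5 CPM in the demyelination controls (n = 5 each), or 32.9 ± 10.99 CPM without the library of 1180 reads (n = 4).

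For the adhesion protein gene mpz the level was 249.7, 173, 68.0, 99.7 and 113 CPM in 4AP, against 33.99, 81.2, 84.9, 73.5 and 78.0 CPM in the 4AP controls. Only 4AP 3 lay within the control range. In demyelination mpz was at 49.0, 235, 37.0, 313 and 41.9 CPM, against 0, 403, 520.4, 200.1 and 410.2 CPM in the controls. Of these, 3 demyelination libraries lay at or under 49.0 CPM and the other 2 lay within the range of the 4 deeper controls. For mag, with 349 reads in all, the mean was 37.4 ± 12.3 CPM in 4AP and 21.9 ± 13.1 CPM in the 4AP controls (SD, n = 5 each). It was 48.8 ± 52.99 CPM in demyelination and 42.8 ± 28.8 CPM in the demyelination controls (n = 5 each). Without the library of 1180 reads the control mean of mag was 53.5 ± 18.4 CPM (n = 4), above that of demyelination.

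The claudins differed from each other. For cldnk the level was 210.4, 267, 138, 362 and 260.2 CPM in 4AP, against 129.8, 288, 203, 147 and 156 CPM in the 4AP controls, with wide overlap. In demyelination cldnk was at 73.5, 365, 61.7, 241 and 48.2 CPM, against 0, 449, 727, 209 and 454 CPM in the controls. For cldn19 the level was 171, 102.03, 115, 119 and 76.2 CPM in 4AP, against 6.18, 23.7, 18.9, 91.9 and 62.4 CPM in the 4AP controls, so that 4AP 5 alone lay below a control. In demyelination cldn19 was at 24.5, 26.1, 24.7, 36.1 and 26.4 CPM, against 0, 84.8, 66.1, 91.0 and 70.6 CPM in the controls. Demyelination 1 to 4 rest on 1, 1, 2 and 3 reads of cldn19, while demyelination 5 holds 93 reads, of which 54 are intron reads.

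For each gene the group means were put in order, and over all libraries neighbours in that order had overlapping values in every case. Where the demyelination controls had the higher mean, the library at 0 CPM fixed this overlap in advance. On library totals without that library, mbpb ranged from 337 to 543 CPM in those controls and from 24.7 to 325 CPM in demyelination. These ranges did not overlap, but with TMM-normalised levels the same mbpb groups did. The highest mean was in the demyelination controls for mbpa, plp1b, mpz and cldnk, in 4AP for mbpb, plp1a and cldn19, and in demyelination for mag, where the demyelination controls came first once the library of 1180 reads was left out. The lowest was in the 4AP controls for mbpa, mpz and mag, in 4AP for plp1b, and in demyelination for mbpb, plp1a, cldnk and cldn19.

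Against its control, 4AP gave a log2 fold change above 0 for 7 of 8 members, and 0 of them were called by edgeR at an adjusted p under 0.05. An unadjusted edgeR p under 0.05 was reached by 3 members. Many other genes passed that threshold too, since mbpa at an edgeR p of 0.0491 had an adjusted p of 0.149. The count of 3 is therefore not read as a result about the members. DESeq2's Wald test called 1 member, cldn19, among 19.3% of genes. All 8 passed the filter on low counts, and 13.1% of the 5161 genes tested were called, 154 higher and 520 lower in 4AP, or 360 higher and 241 lower when library totals replaced TMM. The median over members was 0.59 and over all genes tested 0.19, and 6 of the 8 members lay above that median. With library totals these medians were 0.88 and 0.49. The largest change was that of cldn19, 1.25 ± 0.46 on the log2 scale (SE, edgeR adjusted p = 0.0752), followed by mbpb at 0.86 ± 0.34 (edgeR adjusted p = 0.0985). For mbpa and mpz the change was 0.69 ± 0.33 and 0.69 ± 0.37 (edgeR adjusted p = 0.149 and 0.195). For plp1a, mag and cldnk it was 0.50 ± 0.52, 0.39 ± 0.48 and 0.11 ± 0.32, each smaller than its SE, with edgeR adjusted p of 0.503, 0.572 and 0.828. The exception in sign was plp1b at -0.88 ± 0.43 (edgeR adjusted p = 0.158).

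The number of members called changed with which control library was left out. Without 4AP control 5, the 1 control with the prefix of the treated libraries, edgeR called 4 members, but also 48.9% of all 4373 genes tested. Higher in 4AP were mbpb by 1.15 (adjusted p = 0.00924), mbpa by 0.91 (adjusted p = 0.0328) and cldn19 by 1.63 (adjusted p = 0.0117), while plp1b was lower, at -1.10 (adjusted p = 0.0125), all on the log2 scale. Without 4AP control 4, cldn19 was called among 6.66% of genes. When the fit also held a term for the prefix, edgeR called 0 of 5161 genes, with 106 at an unadjusted p under 0.05. The change of plp1b was then 1.11, the opposite sign, and those of mbpa, mbpb and cldn19 were 0.32, 0.24 and 0.69 (edgeR adjusted p = 0.999 for each). For plp1a, mpz, mag and cldnk the changes were 0.87, 0.64, 0.43 and 0.49. All 8 members lay above 0 in this fit, with a median of 0.57, against 0.03 over all genes tested. Treatment and prefix cannot be told apart in these 10 libraries beyond that single control.

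**Figure D3:**
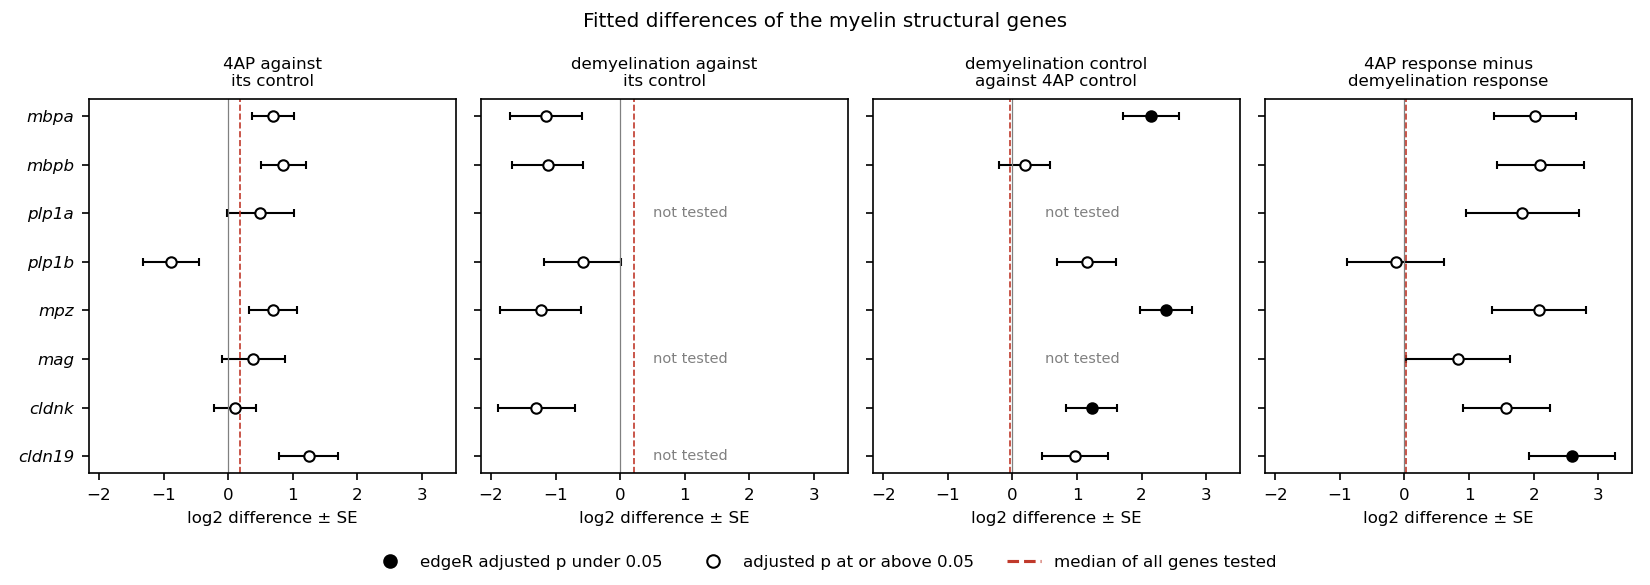
Log2 fold change of each member with its standard error, for 4AP against its control, demyelination against its control, the demyelination control against the 4AP control, and the 4AP response minus the demyelination response. The dashed line is the median of all genes tested, and filled points were called by edgeR at an adjusted p under 0.05: 3 among the control groups, 1 for the difference between responses and 0 in either treatment comparison.

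Against its own control, demyelination left 5 members testable, and all 5 had a log2 fold change below 0. None of them was called by edgeR, nor was any of the 823 genes tested (0%), of which 78 had an unadjusted p under 0.05. DESeq2's Wald test called 1 gene and 0 members. The median over the 5 members was -1.15, against 0.21 over all genes tested. The change was -1.30 ± 0.60 for cldnk, -1.23 ± 0.63 for mpz, -1.15 ± 0.56 for mbpa and -1.12 ± 0.55 for mbpb, and each had an edgeR adjusted p of 0.459. For plp1b it was -0.58 ± 0.60 (edgeR adjusted p = 0.736). The genes plp1a, mag and cldn19 had too few reads to pass the filter.

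Without the library of 1180 reads, the changes were -1.31 for cldnk, -1.23 for mpz, -1.16 for mbpa, -1.14 for mbpb and -0.57 for plp1b, with edgeR adjusted p from 0.394 to 0.687. On library totals and without that library, the groups of 2 members did not overlap, mbpb and cldn19, both lower in demyelination, and cldn19 did not pass the filter in that setting. The same was seen in 5.1% of the 1157 genes tested without that library. In demyelination, mbpb ranged from 24.7 to 325 CPM, against 337 to 543 CPM in controls 2 to 5, a gap narrower than the spread within either group. With TMM-normalised levels from the fit that kept the library of 1180 reads, mbpb overlapped, with demyelination 4 at 599 CPM and control 4 at 485 CPM. Leaving out each library in turn, mbpa ranged from -1.64 to -0.79, mbpb from -1.64 to -0.89, mpz from -2.03 to -0.90, cldnk from -1.70 to -0.99 and plp1b from -1.11 to -0.23, with 0 members called in any of the 10 fits.

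The demyelination controls were compared with the 4AP controls to see how far the control groups of both experiments stood apart. Of 6 members tested, edgeR called 3, all higher in the demyelination controls, where 25.9% of the 1998 genes tested were called and 11.7% were called higher. The gene mpz was higher by 2.38 ± 0.40 on the log2 scale (edgeR adjusted p = 9.84e-05), with 307 ± 207 CPM in the demyelination controls and 70.3 ± 20.7 CPM in the 4AP controls (SD, n = 5 each). The gene mbpa was higher by 2.15 ± 0.43 (edgeR adjusted p = 0.000682), with 319 ± 264 CPM in the demyelination controls and 85.4 ± 36.2 CPM in the 4AP controls (n = 5 each). The gene cldnk was higher by 1.23 ± 0.39 (edgeR adjusted p = 0.0231), with 368 ± 275 CPM in the demyelination controls and 185 ± 63.6 CPM in the 4AP controls (n = 5 each). Without the library of 1180 reads, the demyelination controls averaged 383 ± 133 CPM for mpz, 398 ± 225 CPM for mbpa and 459.8 ± 212 CPM for cldnk (n = 4). Values of 1.15 ± 0.45 for plp1b, 0.97 ± 0.51 for cldn19 and 0.19 ± 0.39 for mbpb missed the threshold, with edgeR adjusted p of 0.0605, 0.154 and 0.761. The gene plp1b passed it with exon reads (edgeR adjusted p = 0.0310) and with unique reads (edgeR adjusted p = 0.0425), and cldnk missed it when no filter was applied (edgeR adjusted p = 0.277).

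Leaving out 1 library at a time kept mbpa and mpz called in 10 of 10 fits, but cldnk in 5 of 10. The cldnk call was lost without demyelination control 2 or 3, or without 4AP control 1, 3 or 4. Without 4AP control 5, 5 members and 51.2% of genes were called. The median over the 6 members was 1.19, against -0.04 over all genes tested. Because the demyelination controls carry prefix P3 and the 4AP controls P1 or P2, the experiment and the prefix cannot be told apart.

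The 4AP response minus the demyelination response asks whether both treatments moved a gene by different amounts. Among 3981 genes tested edgeR called 66 (1.66%), 14 of them with a higher 4AP response (0.352%), and 1 of the 8 members. The gene cldn19 had a difference of 2.59 ± 0.67 on the log2 scale (edgeR adjusted p = 0.0428). It did not pass the filter in demyelination against its control, where demyelination 1 to 4 held 1, 1, 2 and 3 reads of it, and passed only in comparisons that include libraries of the 4AP experiment. The other members above 0 were mbpb at 2.10 ± 0.67 (edgeR adjusted p = 0.0945), mpz at 2.08 ± 0.73, mbpa at 2.03 ± 0.64 (edgeR adjusted p = 0.0907), plp1a at 1.82 ± 0.88, cldnk at 1.58 ± 0.67 and mag at 0.82 ± 0.80. For plp1b it was -0.14 ± 0.75, or 0.39 when scaled by library totals, and among all genes library totals turned 14 higher and 52 lower calls into 57 and 14. The genes plp1a and mag passed the filter neither in demyelination against its control nor between the controls. The median over all 8 members, these included, was 1.92, against 0.03 over all genes tested.

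The cldn19 call was close to its threshold. It held in 5 of 20 fits that each left out 1 library, with a difference of 2.34 to 3.002 and an adjusted p of 0.00317 to 0.113. Those 5 left out 4AP control 4, 4AP control 5, demyelination control 1, demyelination 3 or demyelination 4. With exon reads cldn19 was not called, at a difference of 2.97 (edgeR adjusted p = 0.0547). Without 4AP control 5, 3 members (mbpa, mbpb and cldn19) and 18.4% of genes were called, and without demyelination 4, 4 members and 2.04% of genes. A fit that also held a term for the prefix gave cldn19 a difference of 2.05 and edgeR called 0 genes, with 98 at an unadjusted p under 0.05. In the simulated data for this comparison, edgeR recovered 10 of 100 genes changed by 2, so this design finds few differences of that size.

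The parts of the member reads taken by mbpb and plp1b differed between libraries. The share of the 8 members' reads that came from mbpb was 37.1 to 58.4% in the 4AP libraries, against 55.1% in 4AP control 5 and 27.3 to 42.6% in 4AP controls 1 to 4. That of plp1b was 3.72 to 9.11% in 4AP, 3.52% in 4AP control 5 and 14.98 to 22.4% in 4AP controls 1 to 4. In the demyelination experiment the mbpb share was 5.41 to 36.4% in demyelination and 16.8 to 26.1% in its controls, while plp1b was 10.4 to 24.3% in demyelination and 12.7 to 16.5% in its controls. For mbpb and plp1b, 4AP control 5 thus lay outside the range of 4AP controls 1 to 4, as it did for mbpa at 10.7%. Its shares of plp1a, mpz, mag, cldnk and cldn19 lay within that range. The mbpb shares of 4AP 1 and 4AP 3, at 37.1 and 42.3%, also lay within the range of 4AP controls 1 to 4. By prefix, plp1b reads per mbpb read were 0.0712 to 0.246 in the 4AP libraries and 0.0639 in 4AP control 5 (P2), 0.489 to 0.667 in P1 and 0.419 to 4.50 in P3. The prefixes P1 and P2 did not overlap on this ratio, which is a description chosen after its values were seen, without a test.

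**Figure D4:**
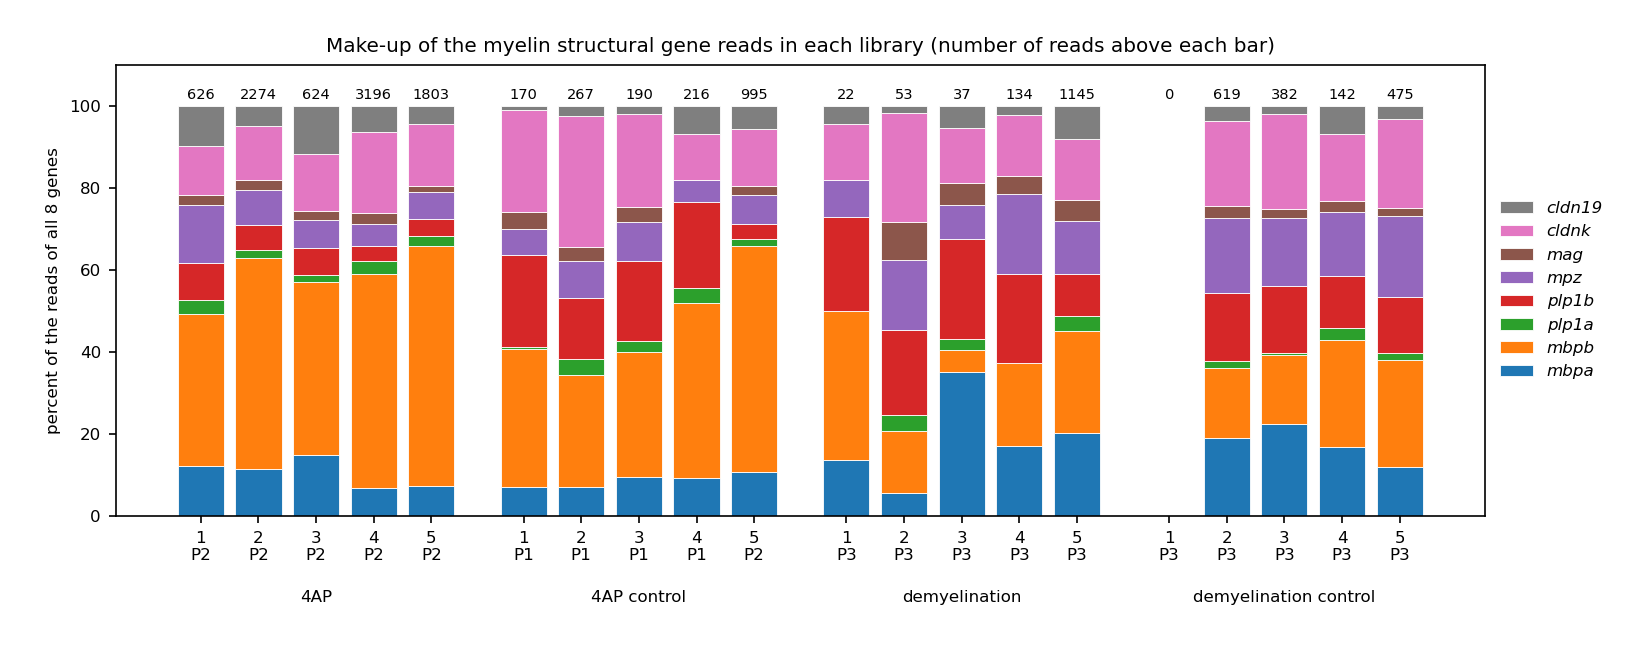
Share of the 8 members' reads that each gene took in every library, as stacked percent, with the libraries in group order and the file prefix below. The plp1b share is 3.52% in 4AP control 5, close to the 4AP libraries and below the 14.98 to 22.4% of the other 4AP controls.

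Intron reads made up 8.07% of member reads, against 32.0% over all genes. They were 65.04% for mag, 30.1% for cldn19, 17.5% for mpz, 12.3% for mbpa and 0.622% for cldnk. In demyelination 5 they made up 23.3% of member reads (267 of 1145), against 4.55 to 13.5% in the other demyelination libraries, 6.81 to 11.3% in demyelination controls 2 to 5, 5.54 to 8.95% in 4AP and 1.05 to 7.65% in the 4AP controls. Of 63 intron reads of mbpb in demyelination, 62 were in demyelination 5. For cldn19 the intron reads in demyelination numbered 57, with 54 in demyelination 5. These intron reads are counted in the member levels given above, and their source was not tested.

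Of the other 22 myelin and myelin lipid genes matched, 13 were tested in 4AP against its control, where 13.1% of all genes tested were called. Higher in 4AP were ugt8, which encodes the enzyme that adds galactose to ceramide for myelin lipids, by 1.51 ± 0.46 (edgeR adjusted p = 0.0397), and nfasca, a gene for the axon-glia adhesion protein neurofascin, by 1.67 ± 0.49 (edgeR adjusted p = 0.0333). Lower in 4AP was cldn11a, a claudin gene, at -1.87 ± 0.58 on the log2 scale (edgeR adjusted p = 0.0409). The median over the list was -0.02, against 0.59 for the 8 members. In demyelination 5 of the list were tested and 0 called, with a median of -0.35. Between the controls 8 were tested, where 25.9% of all genes tested were called. Higher in the demyelination controls were cd59, cers2a and nfasca by 1.42, 1.24 and 2.43 (edgeR adjusted p of 0.00432, 0.0227 and 0.00225). Lower there was pmp22a, a gene for a peripheral myelin protein, at -1.59 (edgeR adjusted p = 0.00211). For the difference between responses 11 were tested and 0 called.

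Among 12 regulators of oligodendrocyte differentiation, 7 were tested in 4AP and 1 was called, near the 13.1% called over all genes tested. It was tcf7l2, a Wnt pathway transcription factor gene, higher in 4AP by 1.15 (edgeR adjusted p = 0.0282) at 107.6 ± 11.6 CPM in 4AP and 37.0 ± 15.9 CPM in the 4AP controls (SD, n = 5 each). Between the controls tcf7l2 was higher in the demyelination controls by 1.55 and zeb2a by 2.12 (edgeR adjusted p of 0.00803 and 0.00811). These were 2 of 3 tested, beside 25.9% called over all genes tested. Of the 8 OPC markers 5 were tested in 4AP, beside the same 13.1% of all genes called. Of these 5, cspg4 and sox6 were higher in 4AP by 1.42 and 1.15 (edgeR adjusted p of 0.0323 and 0.0334). Between the controls vcanb was lower in the demyelination controls, at -1.29 (edgeR adjusted p = 0.0243). Within demyelination, 1 regulator and 2 OPC markers were tested and 0 called.

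Of the markers of other cells, none of the neuron, Schwann cell, muscle or keratinocyte genes tested in 4AP was called. Lower in 4AP were 2 of 2 microglia and macrophage genes tested, apoeb at -1.31 and lcp1 at -1.70, and 1 of 5 astroglia and radial glia genes, slc1a3a at -1.89. So were 4 of 6 exocrine pancreas genes, prss1, prss59.1, prss59.2 and ctrb1, at -1.05 to -1.30. Over all 5161 genes tested, 10.1% were called lower in 4AP. Between the controls 4 of 5 keratinocyte genes, led by krt5 at -2.25, and 4 of 6 exocrine pancreas genes were lower in the demyelination controls. There 14.2% of the 1998 genes tested were called lower. The neuron markers summed to 393 to 599 CPM in 4AP and 83.4 to 547 CPM in the 4AP controls, and the microglia and macrophage markers to 435 to 602 CPM in 4AP and 507 to 1451 CPM in the 4AP controls. For the difference between responses no marker list had a called gene.

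The genes whose pattern was most like that of mbpa in the demyelination experiment were cdc42, dscamb, marcksl1b, cd82a and si:ch211-133n4.4. Over 9 libraries with at least 10000 total gene reads, their Pearson correlation with mbpa in log2 CPM was 0.923, 0.912, 0.911, 0.8996 and 0.894, and their Spearman correlation 0.95, 0.917, 0.867, 0.967 and 0.90, taken among 3313 genes that averaged 20 reads or more. Over all these genes the median Pearson correlation with mbpa was -0.144. These libraries share a prefix and differ in depth, so the values are a description with no test. Of the members only mbpa, mbpb, plp1b, mpz and cldnk averaged 20 reads or more. Pearson correlations among them over the same libraries ran from 0.651 for mbpa with mbpb to 0.978 for mpz with cldnk. Those of mbpa with plp1b, mpz and cldnk were 0.817, 0.808 and 0.799. All lay below those of mbpa with the genes named above, which were picked as the highest, except that of mpz with cldnk and others without mbpa, which are not compared.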

How the data were processed

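RNA from sorted zebrafish OPCs was measured in 20 libraries, each with its own deposited table. The labels' protocols name QIAGEN kits for both steps, an RNeasy micro kit for extraction and QIAseq UPX for libraries of 3′ ends, with 1 ng or 4 ng of RNA as input. Per the file headers, the deposited values used here are counts of total, exon, intron and unique gene reads. The build is GRCz11 per the submitters' processing notes. The aligner, the strand counted, the annotation release and whether molecular identifiers were collapsed are not given in the sources used here, so copies of 1 molecule may have been counted more than once.

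Total gene reads were tested with edgeR 4.0.16 (limma 3.58.1, R 4.3.3): filterByExpr (minimum count 10, minimum total 15), TMM normalisation and the robust quasi-likelihood test, with Benjamini-Hochberg adjustment over every gene tested and a threshold of 0.05. Treated libraries were fitted with those of their control, the controls with each other, and the difference between responses on all 20 libraries. CPM used total gene reads, with a prior count of 2 where logged. The genes named were the 8 members, the called genes of each list by smallest p, at most 6 a list and comparison, and the 5 genes most correlated with mbpa. The members and lists were chosen with earlier results of these data known. Of 24 other myelin genes 22 matched.

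Alternatives were DESeq2 1.42.0 (size factors or Wald test), library totals, no filter, exon or unique reads, a replicate block, the prefix as a term and leaving out each library. Comparing mbpb and other members without demyelination control 1 on library totals was added after seeing the data. On simulated counts edgeR recovered 78, 71, 85 and 10 of 100 genes changed by 2 for 4AP (5161 genes), demyelination (823 genes), the controls (1998 genes) and the difference (3981 genes), with 3, 4, 9 and 1 false calls, and 14, 7, 19 and 0 of 100 changed by 1. In a chi-square check for duplicates, 39 of 40 pairs of libraries in a group differed. The exception, demyelination controls 1 and 2, rested on 13 genes (chi-square p = 0.263), so both were kept.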

Additional observations from a re-analysis of the deposited data

Results flagged for a closer look

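Of 32 sets of 1 gene in 1 group of 5 libraries, 4 had a library far from the rest. The rule flags about 1 in 20 sets of independent normal values. Several values here rest on few reads and the genes share libraries, so the 4 are not read as an excess. In demyelination 2, plp1a was at 52.2 CPM, from 2 reads, against 12.3 CPM in the nearest library. In 4AP control 1, mpz was at 33.99 CPM, against 73.5 CPM in the nearest. In demyelination 4, cldn19 was at 36.1 CPM, from 3 reads, against 26.4 CPM in the nearest. In demyelination control 1, cldn19 was at 0 CPM, against 66.1 CPM in the nearest, in a library of 1180 reads. The responses of cldn19 to 4AP and to demyelination differed by 2.59 on the log2 scale (edgeR adjusted p = 0.0428), a test of the difference itself that was no longer called in 15 of 20 fits leaving out 1 library. In demyelination against its control cldn19 did not pass the filter on low counts, with 1, 1, 2 and 3 reads in demyelination 1 to 4, and it passed only in comparisons that include libraries of the 4AP experiment.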

How the results depend on the processing

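For 4AP, 674 genes were called, against 194 with exon reads, 448 with the replicate block and 0 with the prefix as a term. Members called there numbered 1 with DESeq2's Wald test (cldn19, beside 19.3% of all genes) and 2 without a filter (mbpb and cldn19, beside 3.84%), against 0 (13.1%), and leaving out 1 library gave 271 to 2140 genes and 0 to 4 members. For demyelination, 1 gene was called by the Wald test and 7 without a filter, against 0, and leaving out 1 library gave 0 to 1 genes and 0 to 0 members. On library totals, the added comparison of groups without demyelination control 1 gave 2 members that did not overlap, mbpb and cldn19, both lower in demyelination. The same was seen in 5.1% of the 1157 genes tested there. Of the 2, cldn19 did not pass the filter, and mbpb did overlap with TMM-normalised levels. With that library kept, 0 members were without overlap. This was fixed in advance for lower values, because that library held 0 reads of every member. Between the controls, 983 genes were called without a filter and 208 with exon reads, against 517, and leaving out 1 library gave 385 to 1185 genes and 2 to 5 members. For the difference between responses, 122 genes were called by the Wald test, 114 without a filter, 39 with exon reads and 0 with the prefix, against 66. Members there were 0 with DESeq2 size factors, 3 with library totals (beside 1.78% of all genes), 4 without a filter (0.424%), 0 with exon reads and 0 with the prefix, against 1 (1.66%), and leaving out 1 library gave 3 to 738 genes and 0 to 4 members. Signs reversed for plp1b in 4AP with the prefix (1.11), for mbpb between controls without a filter (-0.25) and with 3 of the 4AP controls left out 1 at a time (-0.088, -0.055 and -0.042, within a range of -0.088 to 0.49 over left-out libraries), and for plp1b in the difference with library totals (0.39), no filter (0.47), the block (0.33), the prefix (1.92) and 6 left-out libraries (range -0.56 to 0.48). Library totals turned the 4AP calls to 360 higher and 241 lower, against 154 and 520, and raised the median gene to 0.49. The cause of these changes was not tested. Same-numbered libraries correlated by -0.10 to 0.11 over both treatment comparisons and that of the controls. These values show no pairing by number, but at such uneven depth they cannot exclude it. The replicate block called 3 members between controls (24% of all genes), with plp1b (edgeR adjusted p = 0.0446) and without cldnk. Low depth limits demyelination, with 4 libraries of 38314 to 83149 reads and a control of 1180.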
